A study of Mus musculus with 18 samples.

Results

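Poised enhancers that pluripotency transcription factors (PTFs) occupied before GATA6 appeared, and that GATA6 occupied only transiently, made up 540 of the 42403 GATA6 binding regions (1.27%). They were chosen by measured values, namely 4 deposited classes: a Transient GATA6 ChIP-seq course, a PTF peak at d0, no SOX17 peak, and the poised enhancer state from public ENCODE histone data of embryonic stem (ES) cells. Each class on its own was larger. Transient binding was given to 16285 regions, of which 5309 carried PTFs at d0, 3961 of those lacked SOX17, and 540 of those (13.6%) were poised enhancers. The classes have no numeric limit in the table, so the nearest neighbours of the set are regions that differ in 1 class: 30 had Early and 9 had Late GATA6 binding, 147 were bound by SOX17, 146 gained PTFs only after induction (ectopic), and 2111 had no PTF.

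GATA6 binding was followed in KH2 ES cells (genotype C57BL/6 x 129/Sv, grown on feeder fibroblasts with LIF), in which doxycycline (Dox, 1 µg/mL) induces a Gata6 transgene. The series itself is 18 MNase-seq libraries in 6 groups of 3, with no Dox (d0) or with Dox for 8, 16, 24, 48 or 96 h, and all groups carry the same transgene. The cells are clonal derivatives of 1 parental line that express GATA6 from the induced cassette, and which clone gave which library was not stated. No MNase value entered the comparisons below, which use the region table of classes, positions and motifs. The histone marks behind the poised state and the ChIP-seq signals behind the other classes were not analysed here, so the label rests on the deposited classes.

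Poised enhancers are distal elements that carry H3K4me1 together with the Polycomb mark H3K27me3 and that often lie near developmental genes not yet expressed. OCT4 (encoded by Pou5f1) and SOX2 bind next to each other on a composite motif, ESRRB is an orphan nuclear receptor, and these factors maintain pluripotency. GATA6 is a zinc-finger factor that starts primitive endoderm (PrE) differentiation, and SOX17 is an HMG-box factor of the endoderm that follows it.

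The motifs that carry the comparisons are shown first, since most of the measures compared concern motifs at the GATA6 summit, the base with the most GATA6 signal. The most common base at each motif position among the best motifs of the 540 regions is given 5′ to 3′, with capitals for a base found in at least 70% of the motifs.
GATA6, 418 full-length motifs: gacAGATAAGaaa
OCT4:SOX2, 498 motifs: ctTTgttATGcAAAt
ESRRB, 191 motifs: tCAAGGTCAaa
SOX17, 368 motifs: cccATTGTc

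The motifs with the highest log-odds scores show what a strong match looked like in these regions. Positions are on GRCm38 (mm10), counted from 1, the sequence is on the strand named, and capitals mark the motif between flanks of 7 bases.
GATA6 motif in an intron of Mgat5, score 15.2, chr1:127244185-127244211, minus strand: ggtgctgGGGAGATAAGAGAcagagag
GATA6 motif near Hlf, score 15.1, chr11:90392218-90392244, plus strand: aaaaaatGAGAGATAAGAAAggagaga
GATA6 motif near Rfx4, score 15.1, chr10:84754550-84754576, plus strand: tgtgtgaGAGAGATAAGAGAtaagaga
OCT4:SOX2 motif in an intergenic region on chromosome 12, score 21.6, chr12:106479867-106479895, plus strand: tcgggggCTTTGTTATGCAAATgtggctg
OCT4:SOX2 motif in an intron of Ntm, score 20.2, chr9:29657896-29657924, minus strand: agttgtcCATTGATATGCAAATgcatgct
OCT4:SOX2 motif in an intron of Glis3, score 19.9, chr19:28635156-28635184, minus strand: tgttgccCATTGACATGCAAATaatggat
ESRRB motif in an intron on chromosome 16, score 18.49, chr16:73096644-73096668, plus strand: aaatcagTCAAGGTCATAatttaag
ESRRB motif in an intron of Olfml2b, score 17.9, chr1:170651433-170651457, minus strand: gtggctgTCAAGGTCAAAtaaaagt
ESRRB motif upstream of Sfmbt2, score 17.9, chr2:10318364-10318388, minus strand: caagttcTCAAGGTCAAActcacac

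All 3 top OCT4:SOX2 motifs held the full octamer ATGCAAAT, which was present in 53 of 498 best OCT4:SOX2 motifs (10.6%, 95% Wilson interval 8.23 to 13.7). The same octamer was found in 7.32% of best motifs in active, 6.41% in primed and 2.97% in PTF-free poised regions of the groups described next. Among GATA6 motifs, 275 of 418 (65.8%) held the core GATAA and 134 (32.1%) the longer AGATAAG. The longer core was found in 22.9% of best GATA6 motifs in active, 27.5% in primed and 43.7% in PTF-free poised regions. These shares describe the letters of the best motif and were not tested.

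The regions were set against 3 groups that each differ from them in 1 class. PTF-bound active enhancers (n = 1237) and PTF-bound primed enhancers (n = 1224) share the Transient course, the PTFs at d0 and the lack of SOX17 but have another histone state. PTF-free poised enhancers (n = 2111) share the Transient course, the histone state and the lack of SOX17 but have no PTF peak. Differences come from a linear model over all 42403 regions, or over all regions with the motifs concerned for motif scores and for which motif was nearer, with standard errors clustered by chromosome, and the intervals of differences are 95% intervals widened for the 30 differences computed. A difference is called where this interval excludes 0. Intervals of shares are 95% Wilson intervals and cover counting error among regions only.

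An OCT4:SOX2 motif was more frequent than a GATA6 motif at the summits of the 540 regions. Within 100 bp on either side of the summit, the window used below, 409 of 540 regions (75.7%, 72.0 to 79.2) held an OCT4:SOX2 motif and 301 (55.7%, 51.5 to 59.9) held a GATA6 motif, in regions that were all called as GATA6-bound. A SOX17 motif was present in 195 windows (36.1%, 32.2 to 40.2) and an ESRRB motif in 85 (15.7%, 12.9 to 19.1). In control windows 3 kb to either side that touched no GATA6 region (n = 1037), the shares were 36.6% for OCT4:SOX2, 30.3% for GATA6, 29.0% for SOX17 and 12.2% for ESRRB. The OCT4:SOX2 and GATA6 shares at the summit were above those of their flanks. The interval of the ESRRB share at the summit overlapped that of its flank (10.4 to 14.4). The rule chose regions by GATA6 and PTF peaks, and the control windows touched no GATA6 region. These contrasts with the flanks therefore concern measures close to the rule.

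**Figure D1:**
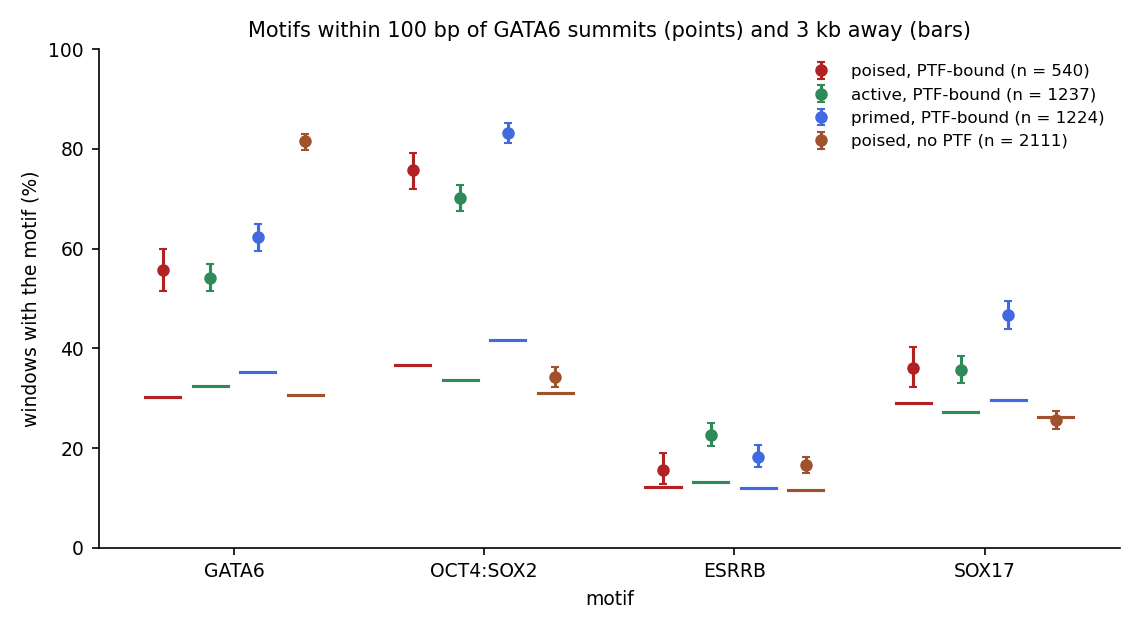
Share of windows (100 bp on either side) with each motif (y axis, percent) at GATA6 summits (points, with 95% Wilson intervals) and in control windows 3 kb away (horizontal bars), for the 540 poised PTF-bound regions and the 3 comparison groups. In the poised PTF-bound regions OCT4:SOX2 reached 75.7% and GATA6 55.7%, while in poised regions without PTFs GATA6 reached 81.5% and OCT4:SOX2 34.2%.

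The GATA6 motif share was lower than in poised enhancers without PTFs and did not differ detectably from that of PTF-bound enhancers in other histone states. PTF-free poised enhancers held a GATA6 motif in 81.5% of windows, a difference of -25.7 percentage points (-34.6 to -16.9) with the same direction on 18 of 19 chromosomes compared. The share in active enhancers was 54.2%, a difference of 1.497 points (-8.64 to 11.6), and in primed enhancers 62.3%, a difference of -6.60 points (-18.4 to 5.16). Neither of these was called, and both intervals leave room for differences of several points in either direction. Counted anywhere in the region, the difference from primed enhancers was -6.16 points (-10.9 to -1.39) and was called.

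The OCT4:SOX2 motif separated the regions from all 3 groups. Its share was 41.6 percentage points (34.5 to 48.7) above the 34.2% of PTF-free poised enhancers, on 19 of 19 chromosomes. It was 5.57 points (0.514 to 10.6) above the 70.2% of active enhancers, on 15 of 19 chromosomes, a difference that was no longer called in a wider window, with 1 region per 50 kb or without promoters, and that was -0.583 points when any position in the region counted. Against the 83.3% of primed enhancers the difference was -7.59 points (-12.6 to -2.58), on 16 of 19 chromosomes, and it was not called with 200 bp on either side. The rule chose regions with PTF peaks, which are ChIP-seq calls of OCT4, SOX2 or ESRRB in 1 class, so the motif difference from PTF-free regions concerns a measure close to the rule and is best read beside the comparisons with the other PTF-bound groups. The same holds for the difference from PTF-free regions in GATA6 motif share given above. It also holds for those in SOX17 motif share, motif combination, score, position and density given below.

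SOX17 motifs lay between the groups although none of these regions had a SOX17 peak. Their share of 36.1% differed by -10.5 points (-18.2 to -2.90) from the 46.7% of primed and by 10.5 points (4.53 to 16.5) from the 25.6% of PTF-free poised enhancers, and by 0.380 points (-8.89 to 9.65) from active enhancers, which was not called. With 200 bp on either side neither of the first 2 differences was called. Both SOX factors read similar letters, and in 59 of the 195 windows (30.3%) a SOX17 motif overlapped an OCT4:SOX2 motif, against 28.1% in active, 24.9% in primed and 14.8% in PTF-free poised windows with a SOX17 motif. ESRRB motifs gave no called difference, with -6.98 points (-14.5 to 0.514) from active, -2.56 (-9.52 to 4.40) from primed and -0.886 (-7.32 to 5.55) from PTF-free poised enhancers. Counted anywhere in the region, ESRRB motifs were present in 35.4% of the 540 regions and 51.2% of active enhancers, a difference of -15.8 points (-24.6 to -7.06) that was called, in regions with median widths of 556.5 and 699 bp.

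**Figure D2:**
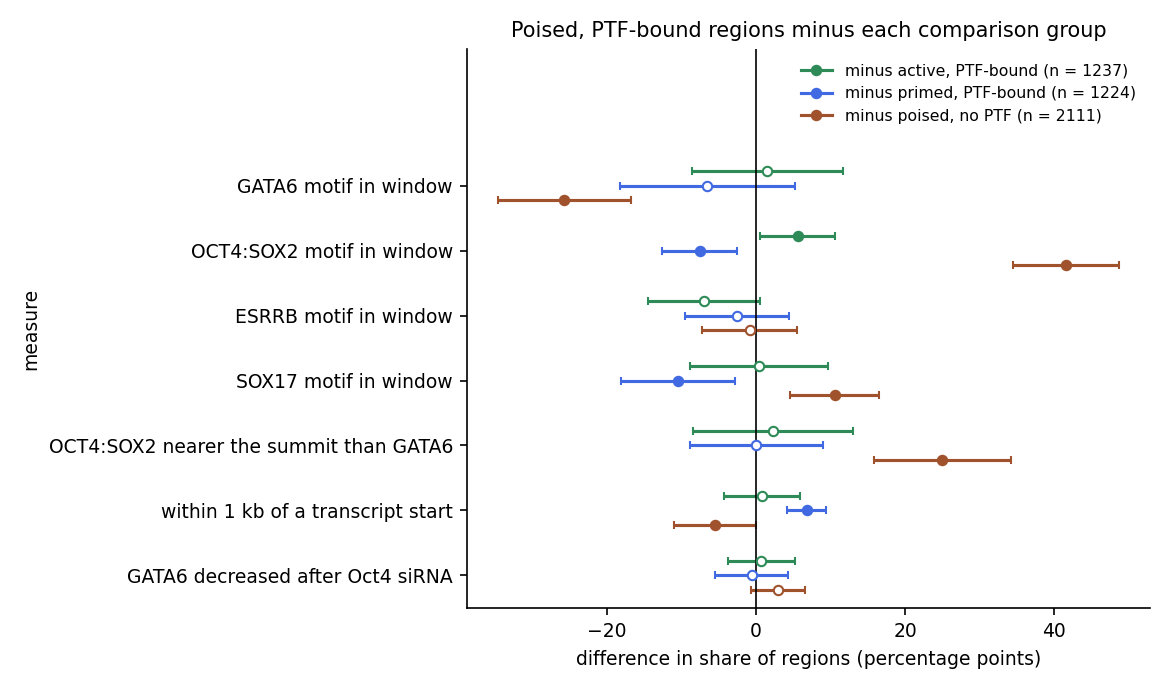
Differences in the share of regions (x axis, percentage points) between the 540 poised PTF-bound regions and each comparison group, with 95% intervals widened for 30 differences. Filled points mark intervals that exclude 0, as for the OCT4:SOX2 motif against all 3 groups, and open points mark the others, as for ESRRB motifs.

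In combination, 219 windows (40.6%) held both a GATA6 and an OCT4:SOX2 motif, 190 (35.2%, 31.3 to 39.3) held OCT4:SOX2 without GATA6, 82 (15.2%) held GATA6 without OCT4:SOX2, and 49 (9.07%) held neither. Windows with OCT4:SOX2 alone thus outnumbered windows with GATA6 alone by more than the counting error. Among PTF-free poised enhancers the order was turned around, with 7.01% for OCT4:SOX2 alone and 54.3% for GATA6 alone, and over all 42403 regions the shares were 9.95% and 45.3%. Active enhancers had 35.6% and 19.6%, and primed enhancers 31.9% and 10.9%. In 20 of the 540 windows (3.70%) none of the 4 motifs was found.

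Over the whole region rather than the window, 430 of 540 regions (79.6%) had a GATA6 motif and 110 (20.4%) had none, against 89.7% with a motif over all regions. An OCT4:SOX2 motif was present in 498 (92.2%), a SOX17 motif in 368 (68.1%) and an ESRRB motif in 191 (35.4%). Several copies were common: 261 regions (48.3%) held 2 to 5 GATA6 motifs and 340 (63.0%) held 2 to 5 OCT4:SOX2 motifs, while 20 and 18 regions held 6 or more. Regions were 188 to 2074 bp wide with a median of 556.5 bp, and wider regions have more room for motifs.

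Motif quality followed the same split. The best GATA6 motif of the 430 regions with one scored 9.92 on average (SD 2.45), which differed by -0.799 score units (-1.09 to -0.510) from the 10.7 of PTF-free poised enhancers. The means were 9.56 in active and 9.92 in primed enhancers, with differences of 0.355 (-0.162 to 0.872) and -0.00816 (-0.454 to 0.437) that were not called, although the first was called with region width as a covariate (0.527 units). The best OCT4:SOX2 motif scored 11.2 on average (SD 3.38, n = 498), 2.87 units (2.18 to 3.56) above the 8.30 of PTF-free poised enhancers. From active enhancers (10.9) and primed enhancers (11.2) it differed by 0.304 (-0.299 to 0.907) and 0.00271 (-0.605 to 0.611) units, again without a call, while the mean score of all OCT4:SOX2 motifs of a region was called above that of primed enhancers (0.507 units). A score is a log-odds match, and GATA6 and OCT4:SOX2 scores come from different matrices and are not compared with each other.

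The OCT4:SOX2 motif also lay closer to the GATA6 summit than the GATA6 motif did. The best OCT4:SOX2 motif was centred a median of 49 bp from the summit and the best GATA6 motif a median of 92 bp. Within 50 bp of the summit lay 261 of 498 best OCT4:SOX2 motifs (52.4%, 48.0 to 56.8) but 150 of 430 best GATA6 motifs (34.9%, 30.5 to 39.5). In PTF-free poised enhancers these shares were 30.5% and 61.8%. Where a region had both, the OCT4:SOX2 motif was the nearer in 232 of 403 regions (57.6%), 25.02 points (15.9 to 34.2) above the 32.5% of PTF-free poised enhancers. Among regions with both best motifs within 100 bp of the summit (135 of the 540 regions) this difference was 13.8 points (-9.33 to 36.9) and was not called. The shares in active (55.3%) and primed enhancers (57.5%) differed by 2.25 points (-8.51 to 13) and 0.0192 points (-8.87 to 8.91), which was not called.

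Counting every motif and not only the best, OCT4:SOX2 motifs reached 89.8 per 100 regions in the 100 bp around the summit, 3.88 times their density 400 to 500 bp away. GATA6 motifs reached 48.1 per 100 regions, 2.16 times their density at that distance. In PTF-free poised enhancers the ratios were 1.35 for OCT4:SOX2 and 4.33 for GATA6, and in active and primed enhancers 2.96 and 3.16 for OCT4:SOX2 and 2.09 and 2.08 for GATA6. SOX17 and ESRRB motifs were denser at the summits of the 540 regions by 1.85 and 1.37 times.

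**Figure D3:**
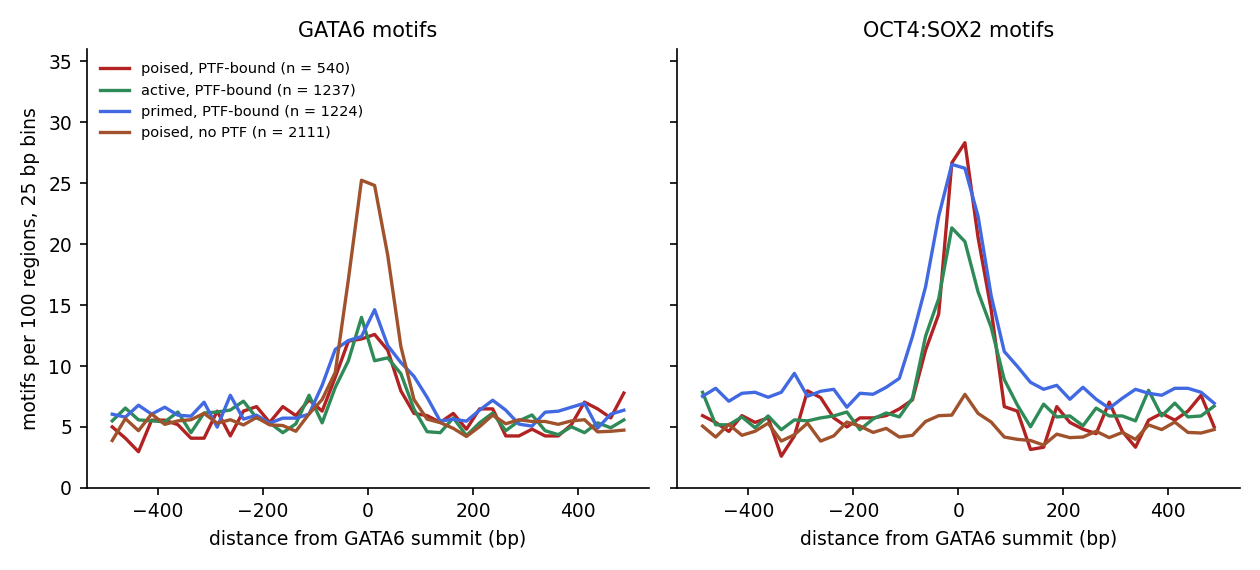
Motifs per 100 regions in 25 bp bins (y axis) by distance from the GATA6 summit (x axis, bp), for GATA6 motifs (left) and OCT4:SOX2 motifs (right) in the 4 groups. In the poised PTF-bound regions the OCT4:SOX2 peak at the summit is taller than the GATA6 peak, and in poised regions without PTFs the GATA6 motif peaks and the OCT4:SOX2 line is nearly flat.

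In some regions the motifs of both factors stood side by side. Of 392 regions with full-length best motifs of both, 25 had overlapping best motifs, 40 had a free gap of 0 to 20 bp, 112 a gap of 21 to 100 bp and 215 a gap over 100 bp, with a median centre distance of 135.5 bp. Counting all motifs in the window, 97 of 219 windows with both (44.3%) held a GATA6 and an OCT4:SOX2 motif with a free gap of 20 bp or less, against 32.9% in active, 44.4% in primed and 34.4% in PTF-free poised enhancers. A GATA6 motif overlapped an OCT4:SOX2 motif in 60 of the 219 windows (27.4%), against 17.1%, 18.4% and 23.0%. These shares were not tested.

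The 3 regions with the closest best motifs without overlap show the arrangement. Both motifs are in capitals between flanks of 12 bases on the plus strand of GRCm38, and they touch in the first 2 sequences and are parted by 2 bases in the last.
Intergenic region on chromosome 4, chr4:124360323-124360374: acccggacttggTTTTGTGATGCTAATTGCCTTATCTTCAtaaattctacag
Exonic region 592 bp upstream of N4bp2, chr5:65762890-65762941: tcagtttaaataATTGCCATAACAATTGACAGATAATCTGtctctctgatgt
Intron of Dusp14, chr11:84061993-84062046: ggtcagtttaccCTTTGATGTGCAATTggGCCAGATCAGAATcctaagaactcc

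In each sequence the OCT4:SOX2 motif comes first. In the first and last sequence it scores 16.8 and 10.8, and the GATA6 motifs score 12.7 and 7.84. In the second the OCT4:SOX2 motif scores 8.54 and the GATA6 motif 6.34, and this region was in the closed accessibility class while the other two were moderate.

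Most of the 540 regions were moderately accessible in untreated cells. The deposited ATAC-seq class at d0 was moderate in 411 (76.1%), accessible in 98 (18.1%) and closed in 31 (5.74%). Over all 42403 regions 31.2% were moderate, 7.43% accessible and 61.3% closed. Active enhancers were accessible in 43.2% and closed in 0.404%, primed enhancers in 9.15% and 16.3%, and PTF-free poised enhancers in 1.99% and 33.0%. These values are a description, because open-chromatin and histone data of ES cells are tied to the classes that chose the regions.

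The GATA6 motif and the accessibility class moved in opposite directions within the 540 regions. A GATA6 motif lay in the window of 27 of 98 accessible regions (27.6%, 19.7 to 37.1), 250 of 411 moderate regions (60.8%, 56.0 to 65.4) and 24 of 31 closed regions (77.4%, 60.2 to 88.6). The share in accessible regions was below the 30.3% of the control windows, with overlapping intervals. The mean best score had the same order, with 8.62 (SD 2.04, n = 52) in accessible, 10.05 (SD 2.42, n = 349) in moderate and 10.7 (SD 2.71, n = 29) in closed regions. The OCT4:SOX2 share had no such order and was 76.5%, 75.4% and 77.4%. SOX17 motifs were found in 43.9% of accessible, 35.3% of moderate and 22.6% of closed regions, with intervals for the first and last (34.5 to 53.7 and 11.4 to 39.8) that overlap, and ESRRB motifs in 15.3%, 16.1% and 12.9%. Region width differed between the classes, with medians of 440.5, 589 and 591 bp, and its part was not tested. The windows have a fixed width.

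In the other groups too, GATA6 motifs were less frequent in accessible than in moderate regions. The share in accessible regions was lowest in the poised PTF-bound set. Closed regions are left out here, because active enhancers held very few. Accessible active enhancers held a GATA6 motif in 42.1% of windows (37.9 to 46.3, n = 535), accessible primed enhancers in 44.6% (35.8 to 53.9, n = 112) and the 42 accessible PTF-free poised enhancers in 57.1% (42.2 to 70.9). The intervals of the active and PTF-free groups did not overlap that of the 98 accessible poised regions (19.7 to 37.1), and that of the primed group did. In the moderate class the shares were 63.4%, 59.8% and 78.3%, against 60.8%. The difference between groups within a class was not tested.

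**Figure D4:**
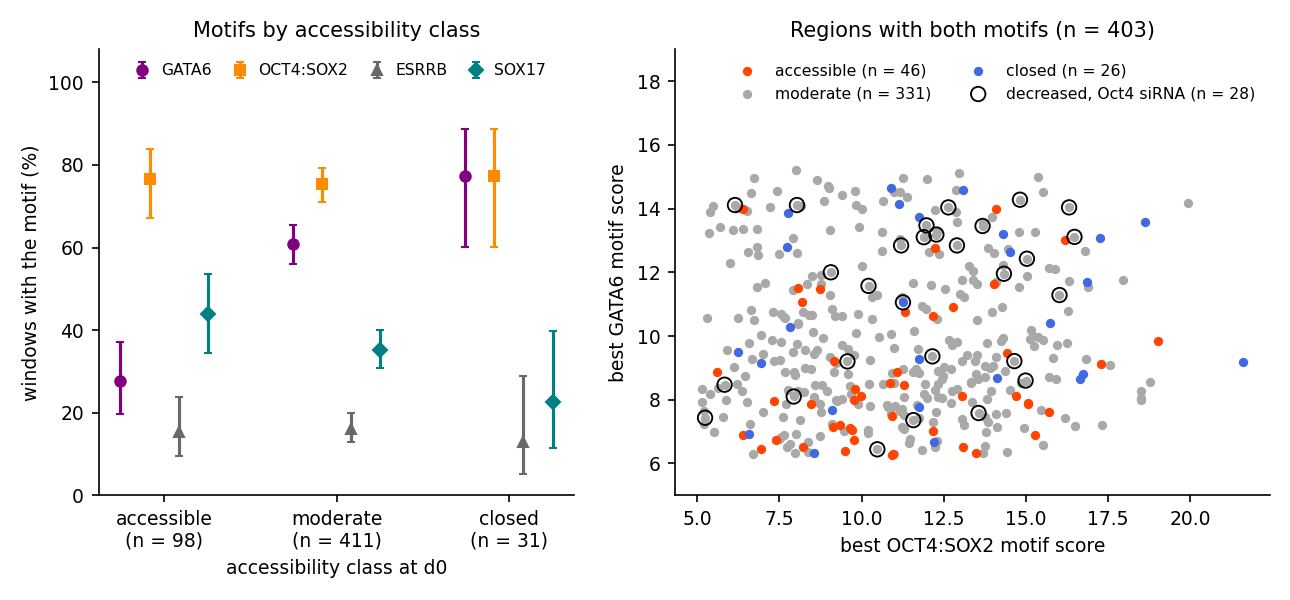
Left, share of summit windows with each motif (y axis, percent, with 95% Wilson intervals) in the 540 regions by accessibility class at d0, where GATA6 goes from 27.6% through 60.8% to 77.4% and OCT4:SOX2 stays between 75.4% and 77.4%. Right, best GATA6 against best OCT4:SOX2 motif score (log-odds) for the 403 regions with both, coloured by class, with rings for the 28 of them whose GATA6 binding decreased after Oct4 siRNA.

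GATA6 binding was classed as changed after Oct4 knockdown at few of these regions. In the deposited classes, which compare GATA6 ChIP-seq 48 h after Oct4 or control siRNA with simultaneous Dox, binding was decreased at 33 of 540 regions (6.11%, 4.38 to 8.46), increased at 1 (0.185%) and unchanged at 506 (93.7%). Over all 42403 regions tested, 6.25% were decreased and 8.57% increased by the same limits (FDR under 0.1 and an absolute log2 fold change over 0.5). The decreased share is thus close to the background of all regions. It was 0.695 points (-3.77 to 5.16) above the 5.42% of active, differed by -0.588 points (-5.47 to 4.30) from the 6.70% of primed, and was 2.94 points (-0.742 to 6.62) above the 3.17% of PTF-free poised enhancers. None of these was called. Increased regions were as rare in the other groups, with 2, 1 and 3 regions, and in all Transient regions, with 47 of 16285 (0.289%). The unchanged class holds regions that did not meet both limits, which does not show equal binding. Transient regions lose GATA6 as differentiation advances, and the signal left at 48 h was not analysed here. In bulk cultures, weaker binding in each cell and binding in fewer cells cannot be told apart. The knockdown was made in 1 clone (G6.3).

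The 33 decreased regions held a GATA6 motif in the window in 24 cases (72.7%, 55.8 to 84.9) and the 506 unchanged regions in 276 (54.5%, 50.2 to 58.8), with intervals that overlap. The mean best GATA6 score was 11.1 (SD 2.54, n = 29) against 9.83 (SD 2.42, n = 400). OCT4:SOX2 motifs were as frequent in both, with 72.7% and 75.9%, and their best scores averaged 11.6 (SD 3.07) and 11.15 (SD 3.40). Of the 33, 31 were moderate, 1 accessible and 1 closed. The decreased share was 7.54% of moderate (5.36 to 10.5), 1.02% of accessible (0.18 to 5.56) and 3.23% of closed regions (0.572 to 16.2), intervals that overlap, against 6.63%, 5.01% and 6.21% of all GATA6 regions in these classes. Decreased regions were also wider, with a median of 867 against 545.5 bp. The part of width in these values was not tested.

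The decreased regions with the best OCT4:SOX2 motifs lay in an intron of Asic2 on chromosome 11, which encodes an acid-sensing ion channel (OCT4:SOX2 score 16.5), 308 bp from the start of the sodium-proton exchanger gene Slc9a2 on chromosome 1 (16.3), and in an intron of Kank4 on chromosome 4 (16.0). Their OCT4:SOX2 motifs were centred 17, 10 and 4 bp from the summit and their best GATA6 motifs scored 13.1, 14.0 and 11.3. The only increased region, chr14:118415894-118416464, was intergenic and moderate, with 2 GATA6 motifs (best score 8.84) and 4 OCT4:SOX2 motifs (best score 10.9).

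The sequence around the summit was on average richer in CpG than that of PTF-bound enhancers in other states. Windows held 1.31 CpG per 100 bp (SD 1.15, median 0.995), a difference of 0.234 (0.0453 to 0.424) from the 1.07 of active enhancers and of 0.653 (0.496 to 0.809) from the 0.653 of primed enhancers. PTF-free poised enhancers had more, 1.75, a difference of -0.441 (-0.602 to -0.281). The direction of these mean differences held on 17, 19 and 19 of 19 chromosomes. The active and primed groups are set apart by the histone state that the rule used. Whether CpG content is tied to that state was not tested. The quartiles and median of active enhancers (0.498, 0.995 and 1.49) were the same as those of the 540 regions. GC content averaged 46.5% (SD 4.93), against 46.8%, 43.0% and 50.8%. CpG-island-like windows were nevertheless rare: the ratio of observed to expected CpG passed 0.6 in 23 of 540 windows (4.26%, 2.85 to 6.31), against 4.96% over all regions.

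Summits lay within 1 kb of an annotated transcript start in 57 regions (10.6%, 8.24 to 13.4). This was 6.80 points (4.17 to 9.43) above the 3.76% of primed enhancers, differed by -5.55 points (-11.0 to -0.0629) from the 16.1% of PTF-free poised enhancers, and by 0.774 points (-4.35 to 5.89) from the 9.78% of active enhancers, which was not called. The difference from PTF-free poised enhancers was not called with a limit of 2 kb. Regions in the promoter state form a separate histone class (238 with a Transient course, PTFs at d0 and no SOX17). That class entered none of these groups, so nearness to a transcript start is a measure close to the rule. The promoter-near regions held GATA6 and OCT4:SOX2 motifs as often as the 483 distal regions, with 57.9% against 55.5% for GATA6 and 75.4% against 75.8% for OCT4:SOX2. By annotation 260 summits (48.1%) were intergenic, 249 (46.1%) intronic, 18 (3.33%) in exons and 13 (2.41%) in UTRs. The nearest protein-coding gene start was a median of 43181 bp away, compared with 25876 bp for active, 66296.5 bp for primed and 19614 bp for PTF-free poised enhancers.

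None of the 540 regions lay on chromosome X, which allows a share of up to 0.556% with a limit of 3 counts (Wilson upper limit 0.706%). Over all regions 1238 (2.92%) were on chromosome X. Poised regions were scarce there as a class: 10 of all 6185 poised regions (0.162%) and 4 of the 2111 PTF-free poised enhancers (0.189%) were on X, compared with 1.46% of active and 4.25% of primed enhancers. The autosomes held between 12 regions (chromosome 18) and 49 regions (chromosome 2). Another GATA6 summit lay within 10 kb of 253 regions (46.9%), and for 150 of those the nearest was Transient as well. Repeat-masked sequence held 72 summits (13.3%, 10.7 to 16.5), against 17.7% in active, 24.4% in primed and 11.9% in PTF-free poised enhancers, and GATA6 and OCT4:SOX2 motifs were found in 58.3% and 77.8% of those 72 windows, close to the 55.3% and 75.4% of the other 468.

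Of 21911 protein-coding genes, 952 (4.34%) had at least 1 of the 540 summits within 100 kb of their start. In 6 of 7 gene lists the share was higher: 3 of 21 genes of the formative state and epiblast (14.3%), 8 of 60 developmental regulators known as Polycomb targets (13.3%), 5 of 39 genes of the pluripotency network (12.8%), 3 of 24 WNT pathway genes (12.5%), 3 of 25 genes of the FGF and MAPK pathway (12%) and 2 of 34 PrE genes (5.88%). In the Nodal, BMP and TGF-beta list it was 1 of 24 (4.17%). The counts are small and the lists are not independent. Lef1 counts in the formative and WNT lists and Otx2 in the formative and developmental lists. The 2 PrE genes, Krt8 and Krt18, share 1 region. Genes of these lists lie close to GATA6 regions in general, since 95% to 100% of each had some GATA6 summit within 100 kb against 87.4% of all genes, and whether the higher shares are particular to the 540 regions was not tested. The developmental regulators were the only list with more genes near the 540 regions (8) than near the 1237 active or the 1224 primed enhancers (4 each). For those 2 groups the 6.67% of this list was below the 12.8% and 8.22% of all protein-coding genes, and near PTF-free poised enhancers lay 25 of the 60 (41.7%), against 23.8% of all genes. The list holds Polycomb targets, and poised enhancers as described above carry a Polycomb mark, which was not checked in these regions. The excess of this list over active and primed enhancers, which differ by the histone state of the rule, therefore concerns a measure close to the rule. Of the pluripotency network, 17 of 39 genes lay near active enhancers.

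**Figure D5:**
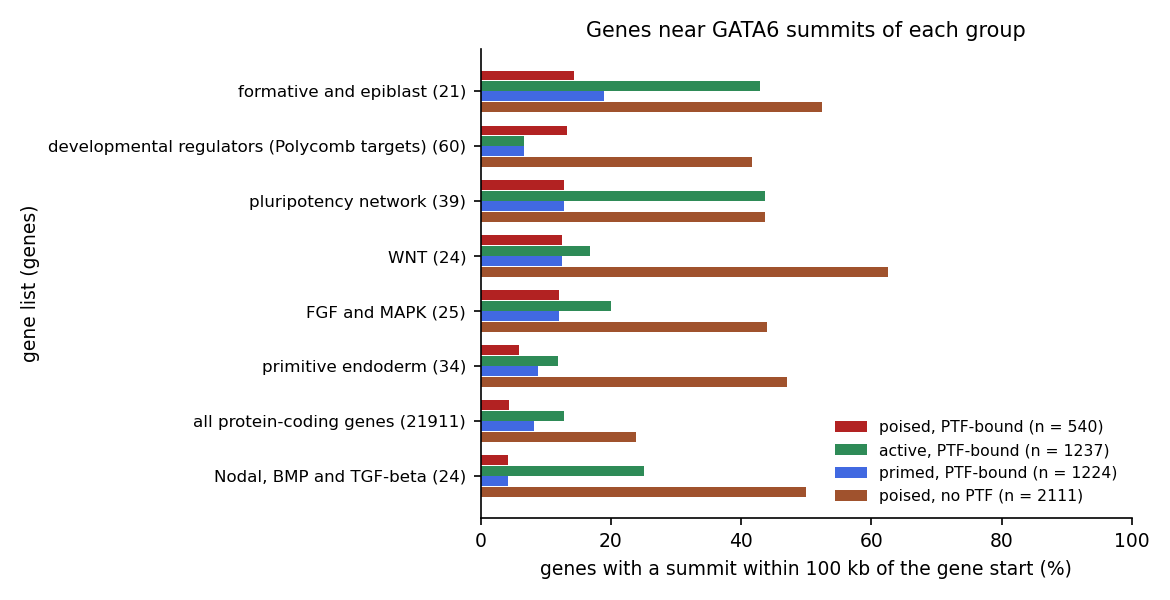
Share of genes with a summit within 100 kb of the gene start (x axis, percent) in 7 gene lists and all protein-coding genes, for the 540 poised PTF-bound regions and the 3 comparison groups, which hold more regions. For the 540 regions the shares go from 4.17% to 14.3%, with 4.34% over all protein-coding genes.

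Among developmental regulators, the nearest region was in an intron of Cdx2, 2851 bp downstream of the start of this homeobox gene of trophectoderm and posterior embryo (chr5:147304151-147304620). It held 1 GATA6 motif (score 9.70), no OCT4:SOX2 and no ESRRB motif. Regions near the other developmental genes lay 7428 bp upstream of Cbx8, which encodes a chromobox subunit of Polycomb repressive complex PRC1, 8885 bp upstream of the forkhead gene Foxb1, 11539 bp downstream of Msx2, 22407 bp downstream of Dlx5 (and nearer to the neighbouring Dlx6), 53781 bp upstream of Irx5, 80498 bp upstream of Otx2 and 83035 bp downstream of Hand2 (and nearer to Scrg1). The Msx2 region was accessible, the Irx5 region closed and the rest moderate, and all 8 were in the unchanged class after Oct4 siRNA. Their best OCT4:SOX2 scores, where present, went from 5.68 at Foxb1 to 16.9 at Cbx8, and their best GATA6 scores from 6.53 at Hand2 to 13.7 at Dlx5.

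The Cbx8 and Dlx5 regions combine strong motifs of both factors close to the summit, and the Cdx2 region has a GATA6 motif alone. At Cbx8 the GATA6 and OCT4:SOX2 motifs were centred at -8 and -20 bp from the summit (negative positions have lower coordinates), both on the minus strand, and overlap, so that the flank of the second sequence shows the GATA core of the first.
Cbx8, GATA6 motif, score 11.5, chr11:119048376-119048402, minus strand: gtgttgtTCCAGATAAGCCAttaatat
Cbx8, OCT4:SOX2 motif, score 16.9, chr11:119048363-119048391, minus strand: gataagcCATTAATATGCAAATcagggag
Dlx5, GATA6 motif, score 13.7, chr6:6859609-6859635, minus strand: tgttactGTAAGATAAGAATgatatcc
Dlx5, OCT4:SOX2 motif, score 14.0, chr6:6859679-6859707, minus strand: ctgaagcCTTTATCATTCAAATtacaagt
Cdx2, GATA6 motif, score 9.70, chr5:147304352-147304378, minus strand: cgcttttCTTTGATAAGATCgccttgt

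Among genes of the pluripotency network, regions lay 6047 bp upstream of Klf2, a Krüppel-like factor of naive pluripotency (chr8:72312513-72313512), and 8143 bp downstream of Gbx2, a homeobox gene that responds to LIF (chr1:89922823-89923597). The Klf2 region had 3 GATA6 motifs, the best of which scored 14.1 and was centred 338 bp from the summit, and the Gbx2 region held no GATA6 motif and 3 OCT4:SOX2 motifs with a best score of 13.4. Others lay 9696 bp upstream of the de novo DNA methyltransferase gene Dnmt3b, 54922 bp downstream of its cofactor gene Dnmt3l and 67290 bp downstream of Prdm14, a regulator of pluripotency and germ cells. These regions were nearer to the starts of Commd7, Icosl and Slco5a1, respectively. In the Dnmt3b region the best GATA6 motif (score 14.0) was centred 5 bp from the summit and the OCT4:SOX2 motif was weak (6.24), whereas at Dnmt3l and Prdm14 the OCT4:SOX2 motif (scores 11.8 and 13.7) lay nearer to the summit than the GATA6 motif (scores 6.42 and 9.05).

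The mesoderm gene T (Brachyury), listed with the formative state and epiblast, had a region 4368 bp upstream (chr17:8429185-8430576). This region was 1392 bp wide, held 9 GATA6 motifs (best score 11.6) and 2 OCT4:SOX2 motifs (10.2), and was in the decreased class after Oct4 siRNA. The intronic region 33960 bp downstream of the start of Lef1, a nuclear effector of WNT signalling, was decreased as well and held an OCT4:SOX2 motif (12.2) centred at -9 bp from the summit. These were the only decreased regions among the 22 regions named by listed genes. The WNT ligand genes Wnt3a and Wnt7b carried intronic regions 8523 and 22882 bp downstream of their starts, with best GATA6 scores of 12.6 and 11.9 and best OCT4:SOX2 scores of 8.04 and 8.50.
T, GATA6 motif, chr17:8430281-8430307, minus strand: aggacagCGGAGATAACAGGagagtat
T, OCT4:SOX2 motif, chr17:8430117-8430145, plus strand: gagtcttCTCTGTCATTTAAATtaggctc
Lef1, OCT4:SOX2 motif, chr3:131144408-131144436, minus strand: actgtccCATTGTCCTGCTAAActaatcc

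In the signalling lists, Id2, a helix-loop-helix inhibitor that BMP signals induce, had a region 230 bp downstream of its start, in the UTR (chr12:25096735-25097118), and a second region 47544 bp upstream. The promoter region had weak GATA6 (6.31) and OCT4:SOX2 motifs (7.96) and an ESRRB motif of 13.6. Of the FGF and MAPK list, the dual-specificity phosphatase gene Dusp14 had an intronic region 7246 bp downstream of its start, Spry4, a feedback inhibitor of receptor tyrosine kinases, a region 36664 bp downstream, and the exchange factor gene Sos1 a region 82583 bp upstream that lay in an intron of Cdkl4. The PrE list contributed the neighbouring keratin genes Krt8 and Krt18, which share 1 region in an intron of Krt8 (chr15:101999973-102000638), 4302 bp and 28000 bp from their starts, with 3 GATA6 motifs (best score 9.51) and 2 OCT4:SOX2 motifs (7.93). No other gene of that list had a region within 100 kb.

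The regions were spread thinly, and no protein-coding gene had more than 4 within 100 kb of its start. Sfmbt2, a Polycomb-group gene, had 4 within 100 kb, all upstream at 16384 to 68674 bp. All were moderate and in the unchanged class after Oct4 siRNA. Their best GATA6 scores went from 7.43 to 14.3 and their best OCT4:SOX2 scores from 10.7 to 13.9, and each held both motifs. Myb, a transcription factor gene of haematopoietic progenitors, had 3, at 32503 bp upstream and at 60461 and 69377 bp downstream. Id2, N4bp2 and Thap2 were among the genes with 2. Of the pair near Thap2, the farther region lay in an intron of Lgr5, the receptor gene for R-spondins, was accessible, and held 4 OCT4:SOX2 motifs (best score 12.2, centred at -3 bp from the summit) and no GATA6 motif.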

How the data were processed

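MNase-seq libraries of KH2 cells (18, in 6 groups of 3) form the series, and the deposited table lists GATA6 regions with 105 columns. Of these, 34 were used. A further 59 columns of signal match no library of the series and 12 motif-group columns repeat the motif values, and neither set was used. The authors aligned reads to mm10 with Bowtie2, called peaks with MACS2 on merged replicates, kept those called in every replicate, and set the classes by k-means clustering or peak presence. The Oct4 siRNA class came from DESeq2 run by the authors. The deposited motif score is the FIMO log-odds score. No counts were used, so library depth is unknown here. The submitters' processing notes also name cutadapt, SAMtools and bcl2fastq.

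Regions were the units. The 4 scoring matrices were recovered from the deposited best scores (largest residual 5.2e-05) and reproduced for 100% of regions whether a motif was listed. They were used to scan windows of 100 bp on either side of the summit on the GRCm38 sequence. Summits were annotated with GENCODE M21. The 30 differences (10 measures, 3 groups) come from a linear model with chromosome-clustered errors, over 42403 regions, or over the regions with the motifs for GATA6 scores (38052), OCT4:SOX2 scores (30302) and the nearer motif (27674), with 20 degrees of freedom (19 for the last 2) and Bonferroni-widened 95% intervals. The model was run on simulated shares drawn independently for each region, which does not check the clustering by chromosome. The regions and gene lists were chosen with earlier results of these data known. Named regions were the one nearest to each listed gene within 100 kb, the 3 with the highest GATA6, OCT4:SOX2 and ESRRB scores, the increased regions, the 3 decreased regions with the highest OCT4:SOX2 score, those of the 5 genes with most regions within 100 kb, and the 3 with the closest motifs. Of those 5 genes, Id2, N4bp2 and Thap2 tied with others at 2 regions. Motif cores, accessibility strata, spacing and control windows were added after seeing the data and were not tested. The work was done in Python 3.11.15 with pysam 0.24.0, numpy 2.4.6, scipy 1.17.1, pandas 2.3.3 and matplotlib 3.10.9.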

Additional observations from a re-analysis of the deposited data

How the results depend on the processing

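No paired analysis was possible because no library entered any comparison. Of 129 alternatives, 104 kept the direction and the side of the threshold, and 12 of the 30 differences changed under none. The cause of the changes was not tested. All values are differences from the group named, in percentage points unless score units are given. When a motif anywhere in the region counted, the OCT4:SOX2 difference from active enhancers became -0.583, that of GATA6 -2.67 and that of SOX17 -4.69, and the ESRRB difference from PTF-free poised enhancers became 1.22, while the GATA6 difference from primed (-6.16) and the ESRRB difference from active enhancers (-15.8) became called. The OCT4:SOX2 difference from active enhancers was not called without promoter-near summits (5.53), with 1 region per 50 kb (4.04) or with windows of 200 bp on either side (4.65), and the wider window also ended the calls of OCT4:SOX2 (-5.70) and SOX17 (-7.20) against primed and of SOX17 (11.1) against PTF-free poised enhancers. With 1 region per 50 kb, the SOX17 and promoter differences from active enhancers were -0.473 and -0.108. With region width as a covariate the GATA6 score was called against active enhancers (0.527 score units) and the decreased share differed from primed enhancers by 0.639, or by 1.51 among moderate regions only. The GATA6 score difference from primed enhancers was 0.0989, 0.0706 and 0.0944 score units with width as a covariate, without promoters and for the mean score, and the mean OCT4:SOX2 score was called against primed enhancers (0.507). With both best motifs within 100 bp of the summit, the OCT4:SOX2-nearer differences were -4.17 from active, -3.96 from primed and 13.8 from PTF-free poised enhancers, none called, with 135 of the 540 regions left. With a limit of 2 kb the promoter difference from PTF-free poised enhancers was -7.51 and not called.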
